A study of Mus musculus with 12 samples.

Results

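The genes described here are 39 type I interferon-stimulated genes, measured in mouse liver. They were taken by symbol from a fixed list and are 39 of the 56065 genes listed in the deposited tables. All 39 had enough reads to be tested, among 13631 genes tested in all. The list was drawn up with earlier results of these data known.

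The study examined whether cinnabarinic acid, a product of tryptophan breakdown that binds the aryl hydrocarbon receptor (AhR), protects the liver in metabolic dysfunction-associated steatohepatitis (MASH). Liver poly(A) RNA was sequenced from 3 groups of mice, with 4 libraries each. All 3 groups carried floxed AhR alleles, the labels name no Cre, and all started their diets at 8 weeks of age and stayed on them for 20 weeks. The CD group ate control chow in which fat gave 10 kcal% and sucrose was matched. The MD group ate a MASH diet with 2% cholesterol, in which fructose gave 20 kcal% and fat 40 kcal%, and was injected with vehicle, DMSO at 0.2% in saline. The MD+CA group ate the MASH diet and was injected with cinnabarinic acid at 12 mg/kg, carried in DMSO at 0.2%. Injections in both MASH diet groups went into the peritoneum 3 times a week. Whether CD mice were injected is not given in the labels. Nor do the labels say that the libraries of a group came from separate mice, and p-values then measure only the spread between these libraries.

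Libraries held 9089586 to 14492587 reads assigned to transcripts. Hepatocyte markers summed to between 38029 and 77170 CPM, read counts scaled to a common depth, in every library. All 12 libraries, labelled male, held 5122 to 12865 reads of Xist, the transcript that coats an inactive X chromosome, and 0 reads of 4 Y-linked genes. Mitochondrial genes took 10.7, 17.5, 6.16 and 9.37% of reads in MD replicates 1 to 4 and 4.98% to 7.94% over CD and MD+CA, so that 3 of 4 MD libraries lay above both other groups. MD replicate 2, with the largest share, also had the shortest fragment length allowance, 221 bases against up to 280. The allowance is the number of bases the quantification took off transcript lengths.

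Type I interferons are secreted when a cell senses foreign or misplaced nucleic acid. They bind the receptor made of Ifnar1 and Ifnar2, and the kinases Jak1 and Tyk2 then activate Stat2, which joins Irf9 in a complex called ISGF3. ISGF3 binds the interferon-stimulated response element in promoters and switches on genes that block viral replication, sense nucleic acid, or feed back on the pathway. In liver, hepatocytes and Kupffer cells, the resident macrophages, both respond.

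The promoters of several members show that element, and they are printed because it is the sequence through which the pathway is known to act. RefSeq promoter windows, from 250 bases before to 50 after a transcription start on GRCm38.p6, were found for 28 of the 39 members. The core of the element, GAAA, any 2 bases, then GAAA, was searched on both strands and was present in 13 of those 28 (46.4%) and in 3.99% of all 27025 genes with a window. The shorter AANNGAAA, which interferon regulatory factors bind and which lies within every such core, was present in 22 of 28 members (78.6%) and 26.7% of all genes. TTCNNNGAA, the gamma-activated site, was present in 6 of 28 (21.4%) and 9.55% of all genes. Each stretch below is upstream of its start, 5′ to 3′ on the strand of the gene. Capitals mark the core or its reverse complement, except in Oasl1, where they mark AANNGAAA or its reverse complement. Isg15 lies on the minus strand at chr4:156200859-156200918 and holds 3 overlapping copies. Ifit3 at chr19:34583359-34583428 and Ifit3b at chr19:34607755-34607824, on the plus strand, have the same 70 bases. Oas1a at chr5:120907526-120907585 and Oas1g at chr5:120887614-120887673, on the minus strand, end at the base before the start. Rsad2 at chr12:26456543-26456602 and Bst2 at chr8:71537563-71537622 are on the minus strand. Oasl1 at chr5:114923050-114923129 and Cmpk2 at chr12:26469065-26469214 are on the plus strand. Oasl1 and Cmpk2 are the members that pass the test below, and the core is not in the window of either. For Cmpk2 the 150 bases before the start are shown, and AANNGAAA is not in them.
Isg15: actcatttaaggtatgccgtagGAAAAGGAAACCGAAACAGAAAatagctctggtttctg
Ifit3 and Ifit3b: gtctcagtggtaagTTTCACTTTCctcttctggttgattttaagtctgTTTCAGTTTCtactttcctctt
Oas1a: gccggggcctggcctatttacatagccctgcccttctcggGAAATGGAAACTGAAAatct
Oas1g: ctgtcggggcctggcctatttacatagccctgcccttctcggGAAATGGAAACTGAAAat
Rsad2: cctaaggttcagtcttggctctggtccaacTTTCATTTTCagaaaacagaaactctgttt
Bst2: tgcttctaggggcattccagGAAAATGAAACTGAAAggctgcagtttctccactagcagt
Oasl1: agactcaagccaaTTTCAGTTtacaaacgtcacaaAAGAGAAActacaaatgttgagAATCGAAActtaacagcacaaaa
Cmpk2: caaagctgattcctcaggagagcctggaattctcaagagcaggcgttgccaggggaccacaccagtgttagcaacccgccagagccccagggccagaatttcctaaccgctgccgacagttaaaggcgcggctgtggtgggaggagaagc

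The members spanned a wide range of levels. Per length, as TPM, each library's transcript shares corrected for length, averaged over all 12 libraries, Bst2 led with 213 and Ifi27 followed with 98.8. Stat2 (37.5), Xaf1 (32.5), Irf9 (29.7), Ifi35 (28.0) and Isg15 (27.4) came next, and 22 of the 39 members lay under 10 TPM. Cmpk2 (2.28 TPM), Oas2 (1.96 TPM) and Oas3 (0.266 TPM) were among the lowest. In reads, members ranged from 2 for Oas3 to 2261 for Stat2 in a library, so the precision of Oas3 and Ifi27l2a, with 2 to 17 and 6 to 36 reads, was low.

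The members as a group stood highest in MD+CA. The mean log2 CPM over the 39 members was 3.29, 3.79, 3.65 and 3.58 in CD replicates 1 to 4, and 3.73, 3.95, 3.57 and 3.53 in MD. In MD+CA it was 4.07, 4.50, 4.26 and 3.90. The libraries of MD and CD thus overlapped, and 3 of 4 MD+CA libraries lay above all of the other 8, MD+CA replicate 4 lying below MD replicate 2. MD+CA had the highest group mean CPM for 33 members, MD for 5 (Stat2, Oas2, Ifi35, Sp100 and Ifi27l2a) and CD for Bst2. MD+CA replicate 2 alone was the highest of all 12 libraries for 19 members.

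**Figure D1:**
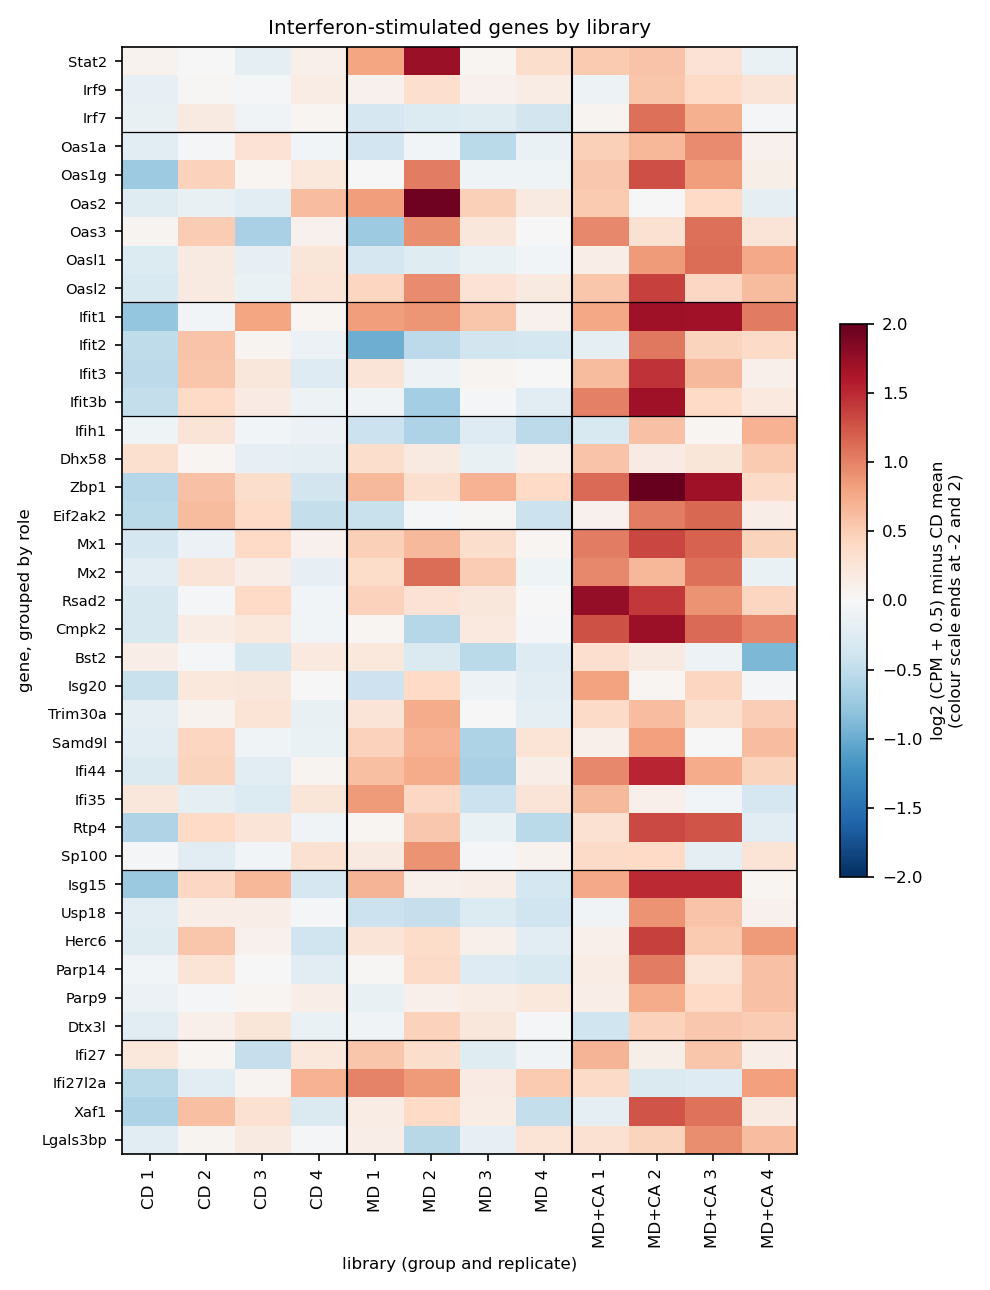
Heat map of the 39 members (rows, grouped by role) in the 12 libraries (columns); colour is log2(CPM + 0.5) minus the mean of the CD libraries, cut at -2 and 2. MD+CA replicate 2 is the highest library for 19 members, and Stat2 and Oas2 are highest in MD replicate 2.

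The effect of cinnabarinic acid on the MASH diet is the contrast MD+CA vs MD, in which 2 members rose. They were Cmpk2, a mitochondrial nucleotide kinase, and Oasl1, a 2'-5'-oligoadenylate synthetase-like protein that restrains translation of Irf7. None fell, with edgeR, DESeq2 or limma voom. By edgeR's quasi-likelihood test with Benjamini-Hochberg adjustment over 13631 genes, 1.06% of all genes were called higher and 1.64% lower at an adjusted p under 0.05. Without the adjustment 21 members were higher and 1 (Oas2) lower, 53.8% of members higher against 11.6% of all genes. Of the 39, 34 had a positive log2 fold change, against 49.7% of all genes, and the median was 0.65 against -0.0035 over all genes. The range ran from -0.87 for Oas2 to 1.48 for Cmpk2. The 5 members below 0 were Stat2, Oas2, Ifi35, Sp100 and Ifi27l2a, although Sp100 turned positive (0.17) with an offset for average transcript length. In 9 members (23.1%) every MD+CA library lay above every MD library, against 4.99% of all genes, and in 0 every one lay below, against 5.21%. The 9 were Irf7, Oas1a, Oasl1, Ifit2, Ifit3b, Eif2ak2, Cmpk2, Usp18 and Lgals3bp.

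Cmpk2 was at 3.5, 2.14, 3.98 and 3.34 CPM in MD replicates 1 to 4 and at 8.91, 12.3, 8.10 and 7.18 CPM in MD+CA. In CD it was at 2.63, 3.85, 4.02 and 3.27 CPM. Every MD+CA library lay above all 8 others, and MD and CD overlapped. The means of Cmpk2 were 3.24 ± 0.784 and 9.12 ± 2.22 CPM (SD, n = 4) in MD and MD+CA, and it rose by 1.48 on the log2 scale (SE 0.26, edgeR adjusted p = 0.0147). Cmpk2 passed in all 12 fits that left out 1 library, with adjusted p of 0.0154 to 0.0426. It missed, at 1.16 and adjusted p = 0.0648, when both libraries numbered 2 (MD and MD+CA) were left out, and adjusted p ran from 5.03e-05 to 0.0648 over 22 alternatives.

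Oasl1 was at 3.57, 3.87, 4.21 and 4.46 CPM in the MD libraries and at 5.14, 8.84, 10.8 and 8.21 CPM in MD+CA. The CD libraries held 3.78, 5.37, 4.11 and 5.63 CPM. MD+CA lay above MD without overlap, while MD+CA replicate 1 lay inside the range of CD. With means of 4.03 ± 0.386 and 8.24 ± 2.33 CPM (SD, n = 4), Oasl1 rose by 1.03 on the log2 scale (SE 0.25, edgeR adjusted p = 0.0409). The call rested on a narrow margin. It held when MD replicate 3 or MD+CA replicate 1 was left out. Without any 1 of the other 10 libraries, controls included, the adjusted p was 0.0514 to 0.114 and the log2 fold change 0.87 to 1.08.

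**Figure D2:**
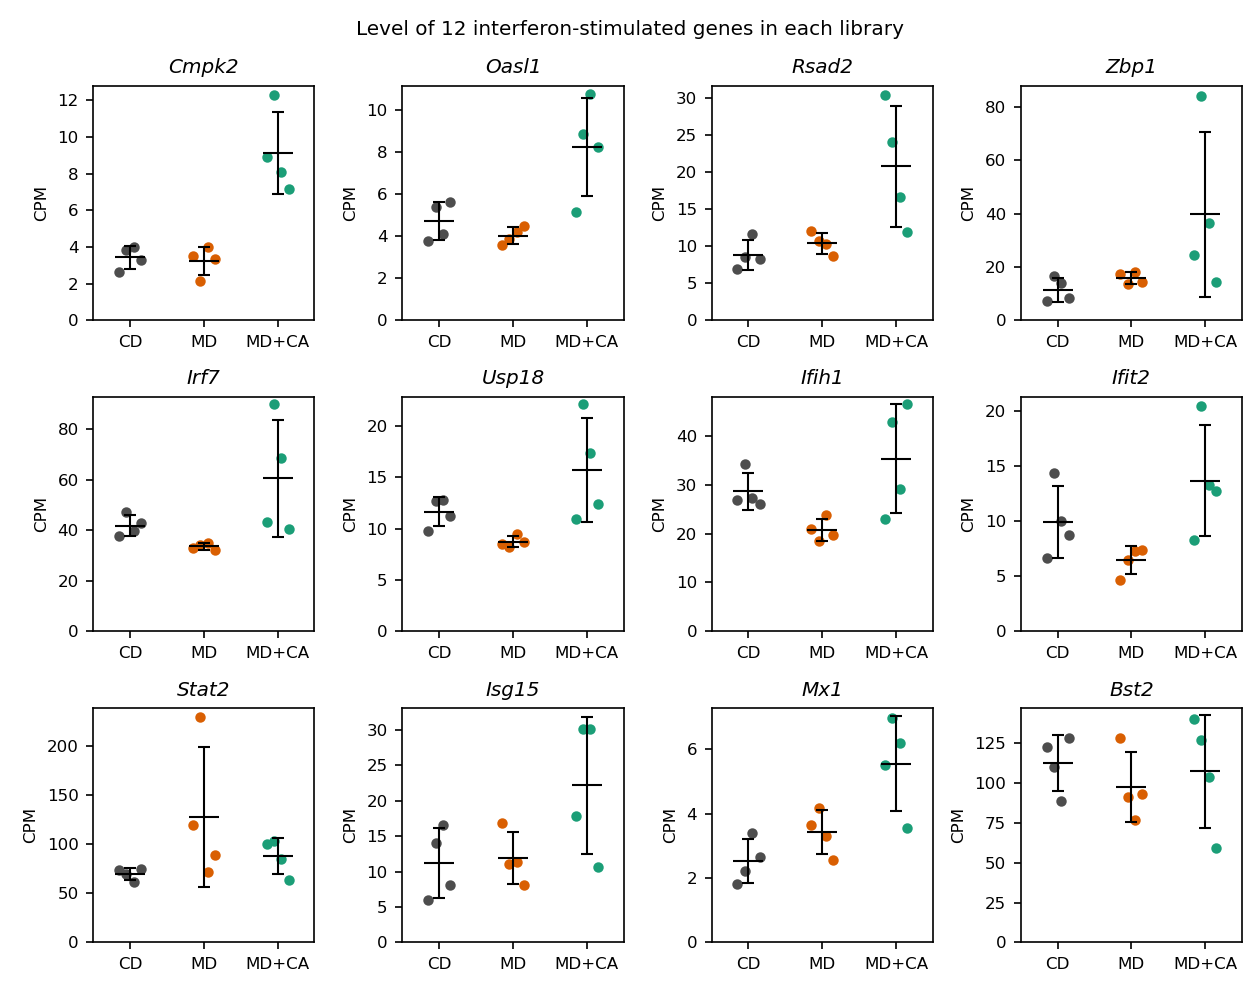
CPM of 12 members in each library (dots) by group, with the group mean (line) and SD (bar), n = 4; each panel has its own axis from 0. Cmpk2 in MD+CA (7.18 to 12.3 CPM) lies above all other libraries, and Stat2 in MD is spread by replicate 2 at 230 CPM.

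Rsad2, or viperin, makes a chain-terminating nucleotide and is the gene next to Cmpk2 on chromosome 12 in the order of protein-coding genes. It was at 12.1, 10.7, 10.3 and 8.67 CPM in MD, 30.5, 24.1, 16.7 and 11.9 CPM in MD+CA and 6.89, 8.51, 11.6 and 8.34 CPM in CD. MD+CA replicate 4 fell just inside the range of MD, and MD+CA lay above CD without overlap. For MD+CA vs MD Rsad2 had a log2 fold change of 0.99 (SE 0.26, edgeR adjusted p = 0.0565), which did not pass. Between MD+CA and CD it was 1.24 (SE 0.27, adjusted p = 0.0525 by the same test), which did not pass either.

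Among the signalling factors edgeR called none of 3 in MD+CA vs MD. The 1 gene with an unadjusted p under 0.05, also called by DESeq2 and by limma voom, was Irf7, the master factor that amplifies interferon production. Of all genes, 11.6% were higher at an unadjusted p under 0.05 with edgeR. DESeq2 called 2.25% of 27133 genes higher, and limma voom 1.37% of 13631. Irf7 was at 32.9, 34.4, 35.1 and 32.4 CPM in MD and 43.4, 89.9, 68.5 and 40.6 CPM in MD+CA, with 37.6, 47.2, 39.9 and 43.0 CPM in CD. The MD libraries were tightly grouped below all 8 others, and MD+CA spread widely above. Its log2 fold change was 0.85 (SE 0.23, edgeR adjusted p = 0.0593) for MD+CA vs MD and -0.32 (SE 0.23, adjusted p = 0.449) for MD vs CD.

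Stat2, the ISGF3 subunit that carries the activation domain, ran the other way. It was at 120, 230, 71.6 and 88.7 CPM in MD, 100.7, 103.2, 85.2 and 63.1 CPM in MD+CA and 73.4, 69.4, 61.6 and 74.7 CPM in CD. MD replicate 2 was far above the other 11 libraries, and the groups overlapped. For Stat2 the log2 fold change was -0.53 (SE 0.30, edgeR adjusted p = 0.30) for MD+CA vs MD and 0.87 (SE 0.30, adjusted p = 0.152) for MD vs CD. Without MD replicate 2 these became -0.09 and 0.42. Irf9, the DNA-binding subunit of ISGF3, held 31.7, 36.5, 35.2 and 39.8 CPM in CD, 37.8, 45.4, 37.9 and 39.7 CPM in MD and 33.3, 52.4, 47.2 and 42.6 CPM in MD+CA. The 3 ranges of Irf9 overlapped, and its log2 fold change for MD+CA vs MD was 0.13 (SE 0.18, adjusted p = 0.69).

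The oligoadenylate synthetase family holds enzymes that make the second messenger that activates RNase L, and also synthetase-like proteins. Of the 6 members of this family 1 passed, the synthetase-like Oasl1. The 6 had a median of 0.66 in MD+CA vs MD. Oas1a was at 2.66, 3.46, 2.33 and 3.26 CPM in MD, 5.24, 6.06, 7.47 and 3.89 CPM in MD+CA and 3.04, 3.55, 4.56 and 3.48 CPM in CD. MD+CA lay above MD without overlap, by a log2 fold change of 0.95 (SE 0.26, edgeR adjusted p = 0.0604). The longest protein-coding transcripts of Oas1a and Oas1g share 97.5% of 1860 aligned bases. Of the 31-base words of that Oas1a transcript, 68.0% occur in the Oas1g transcript. Oas1g-203, which took 80.9% of Oas1g reads on average, was not compared, so how well the reads of the genes separate was not tested. The sum of Oas1a and Oas1g gave 0.81 (SE 0.27, adjusted p = 0.104 by the same test). The identical capitals in the promoters of Oas1a and Oas1g, shifted by 2 bases, show the same likeness upstream of the gene.

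Oas2 was the member with the lowest fold change in MD+CA vs MD and the highest in MD vs CD. It was at 7.71, 17.2, 5.93 and 4.70 CPM in MD, 6.15, 4.09, 5.57 and 3.55 CPM in MD+CA and 3.38, 3.65, 3.49 and 6.54 CPM in CD. As with Stat2, MD replicate 2 stood far above the rest. Oas2 had a log2 fold change of -0.87 (SE 0.38, edgeR adjusted p = 0.181) for MD+CA vs MD and of 1.04 (SE 0.38, adjusted p = 0.161) for MD vs CD. Without MD replicate 2 they were -0.34 and 0.51. Oasl2, next to Oasl1 on the chromosome, had a log2 fold change of 0.33 in MD+CA vs MD. Oas3 and Oas1g had 0.75 and 0.57, and MD+CA overlapped MD in all 3. The longest protein-coding transcripts of Oasl1 and Oasl2 share no 31-base word. Oasl2-205, which took most Oasl2 reads, was not compared, so how well the reads of the genes separate was not tested.

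The IFIT proteins bind viral RNA that lacks the host's cap methylation. All 4 IFIT members had a positive log2 fold change and an unadjusted p under 0.05 in MD+CA vs MD, with a median of 0.92. None passed the adjusted threshold with edgeR, DESeq2 called 2 of them and limma voom 1. Over all genes 11.6% were higher at an unadjusted p under 0.05 with edgeR, and DESeq2 called 2.25% higher and limma voom 1.37%. Ifit2 was at 4.62, 6.52, 7.29 and 7.40 CPM in MD, 8.27, 20.5, 13.3 and 12.7 CPM in MD+CA and 6.62, 14.4, 10.0 and 8.76 CPM in CD. MD+CA lay above MD without overlap, and MD below most of CD. Its log2 fold change was 1.09 (SE 0.29, edgeR adjusted p = 0.0568) for MD+CA vs MD and -0.62 (SE 0.29, adjusted p = 0.251) for MD vs CD, the lowest of all members there.

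Ifit1 held 4.19, 7.19, 13.2 and 7.65 CPM in CD, 13.7, 14.2, 11.2 and 7.96 CPM in MD and 13.1, 25.3, 24.9 and 15.9 CPM in MD+CA. Each group overlapped its neighbour by 1 or more libraries. Ifit1 had a log2 fold change of 0.75 (SE 0.32, edgeR adjusted p = 0.172) for MD+CA vs MD and 1.30 (SE 0.32, adjusted p = 0.0831) for MD+CA vs CD. Ifit3 was at 23.2, 49.6, 39.1 and 27.9 CPM in CD, 40.0, 31.2, 34.7 and 33.4 CPM in MD and 52.4, 92.0, 52.9 and 35.9 CPM in MD+CA. Its log2 fold change was 0.74 (SE 0.28, adjusted p = 0.135 by the same test). Ifit3b, its near copy, had 1.22 (SE 0.31, adjusted p = 0.0506), with MD+CA (11.9 to 34.8 CPM) above MD (6.31 to 10.1 CPM) without overlap. The 2 transcripts agree over 98% of 1697 aligned bases, and the summed gene pair gave 0.85 (SE 0.29, adjusted p = 0.101). The printed promoter stretch, identical in both genes, extends that likeness.

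The sensors of nucleic acid and the kinase PKR had a median of 0.83 in MD+CA vs MD, and 3 of the 4 had an unadjusted p under 0.05. None passed with edgeR, DESeq2 called 2 and limma voom 0. The shares over all genes were 11.6% higher at an unadjusted p under 0.05, 2.25% called higher by DESeq2 and 1.37% by limma voom. Zbp1, which senses Z-form nucleic acid and can start necroptosis, was at 7.16, 16.5, 14 and 8.27 CPM in CD, 17.3, 13.7, 18.0 and 14.5 CPM in MD and 24.3, 83.9, 36.3 and 14.3 CPM in MD+CA. MD+CA replicate 2 lay far above every other library, and replicate 4 lay within MD. Zbp1 had a log2 fold change of 1.32 (SE 0.42, edgeR adjusted p = 0.0898) for MD+CA vs MD. It was 1.80 (SE 0.43, adjusted p = 0.0699) for MD+CA vs CD, the highest of all members. Without MD+CA replicate 2 these were 0.65 and 1.12.

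Ifih1, or MDA5, senses long double-stranded RNA. It was at 26.8, 34.2, 27.3 and 26.1 CPM in CD, 20.9, 18.4, 23.7 and 19.7 CPM in MD and 22.9, 42.9, 29.1 and 46.4 CPM in MD+CA. Every MD library lay below every CD library, and MD+CA replicate 1 fell within MD. On the log2 scale Ifih1 differed by -0.47 (SE 0.22, edgeR adjusted p = 0.249) for MD vs CD and 0.77 (SE 0.22, adjusted p = 0.0649) for MD+CA vs MD. Eif2ak2, the PKR kinase that halts translation, had 0.89 (SE 0.31, adjusted p = 0.111) in MD+CA vs MD without overlap (57.1 to 119 against 39 to 54.3 CPM). Dhx58, or LGP2, a regulator of Ifih1, had 0.27.

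The other antiviral effectors were 12 members, of which Cmpk2 passed. The 12 had a median of 0.36 in MD+CA vs MD and 10 were positive. Mx1, a dynamin-like GTPase that blocks viral nucleoproteins, held 1.82, 2.23, 3.40 and 2.64 CPM in CD, 3.64, 4.17, 3.31 and 2.55 CPM in MD and 5.51, 6.96, 6.20 and 3.55 CPM in MD+CA. MD+CA lay above CD without overlap, and MD+CA replicate 4 lay within MD. The log2 fold change of Mx1 was 1.14 (SE 0.29, edgeR adjusted p = 0.0875) for MD+CA vs CD and 0.70 (SE 0.28, adjusted p = 0.154) for MD+CA vs MD. Mx2 is 1 gene away from Mx1 and had 0.73 and 0.18 in the same comparisons.

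Bst2, or tetherin, holds budding virus at the cell surface and was the member with the highest level. It held 123, 110, 88.9 and 128 CPM in CD, 129, 91.3, 76.7 and 93.0 CPM in MD and 140, 127, 103.7 and 59.5 CPM in MD+CA. The highest and the lowest of the 12 libraries were both in MD+CA. The log2 fold change of Bst2 was 0.14 (SE 0.26, edgeR adjusted p = 0.771) for MD+CA vs MD and -0.07 (SE 0.26, adjusted p = 0.978) for MD+CA vs CD. Bst2 was the 1 member below 0 in the latter, and it crossed to 0.13 without MD+CA replicate 4. Its promoter, printed above, holds 2 overlapping copies of the core. The other 7 of these effectors had log2 fold changes of -0.22 (Ifi35) to 0.78 (Rtp4) in MD+CA vs MD, and these 2 groups overlapped for each.

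Isg15 and the enzymes of ubiquitin-like and ADP-ribose modification were 6 members, all positive in MD+CA vs MD with a median of 0.61. edgeR called none of them, 5 had an unadjusted p under 0.05, and DESeq2 and limma voom each called 1 (Usp18). Among all genes 11.6% were higher at an unadjusted p under 0.05, and DESeq2 called 2.25% higher and limma voom 1.37%. Isg15, a ubiquitin-like modifier that is attached to viral and host proteins, was at 6.01, 14, 16.6 and 8.07 CPM in CD, 16.9, 11.1, 11.4 and 8.04 CPM in MD and 17.8, 30.1, 30.1 and 10.6 CPM in MD+CA. MD+CA replicates 2 and 3 were the highest and replicate 4 lay within both other groups. The log2 fold change of Isg15 was 0.90 (SE 0.36, edgeR adjusted p = 0.157) for MD+CA vs MD and 0.10 (SE 0.37, adjusted p = 0.906) for MD vs CD.

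Usp18 removes Isg15 from proteins and shuts down the interferon receptor. It was at 9.79, 12.7, 12.8 and 11.3 CPM in CD, 8.48, 8.25, 9.46 and 8.67 CPM in MD and 10.9, 22.1, 17.3 and 12.4 CPM in MD+CA. The MD libraries were the lowest of the 12, with no overlap on either side. The log2 fold change of Usp18 was 0.85 (SE 0.22, edgeR adjusted p = 0.0519) for MD+CA vs MD and -0.41 (SE 0.22, adjusted p = 0.302) for MD vs CD, and neither passed. Herc6, the ligase that attaches Isg15 in mice, had 0.65 in MD+CA vs MD. The neighbours Parp14, Dtx3l and Parp9, which lie in that order on chromosome 16, had 0.57, 0.17 and 0.40. All 4 overlapped between MD+CA and MD.

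Mitochondrial, apoptosis-linked and secreted members were 4, none of which edgeR or limma voom called. With DESeq2 1 passed, the same 1 that had an unadjusted p under 0.05 with edgeR. It was Lgals3bp, a secreted glycoprotein that binds galectin. DESeq2 called 2.25% of all genes higher, and with edgeR 11.6% were higher at an unadjusted p under 0.05. Lgals3bp was at 21.7, 13.4, 17.7 and 24.2 CPM in MD and 24.6, 27.1, 38.5 and 30.9 CPM in MD+CA, without overlap. Lgals3bp had a log2 fold change of 0.65 (SE 0.21, edgeR adjusted p = 0.0923) for MD+CA vs MD. It turned to -0.51 with an offset for average transcript length, and to 1.11 from -0.05 in MD vs CD, and that offset differs from the other fits in the lengths of the transcripts that reads were assigned to. Ifi27, a small mitochondrial protein, was at 41.3, 36.9, 25.9 and 41.4 CPM in CD, 52.6, 45.9, 30.2 and 34.1 CPM in MD and 57.9, 38.6, 52.8 and 39.3 CPM in MD+CA. The 3 ranges of Ifi27 overlapped, and the log2 fold change for MD+CA vs MD was 0.21 (SE 0.23, adjusted p = 0.602). Xaf1, which opposes an inhibitor of apoptosis, had 0.64, and Ifi27l2a, the gene next to Ifi27, had -0.56 from 6 to 36 reads.

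**Figure D3:**
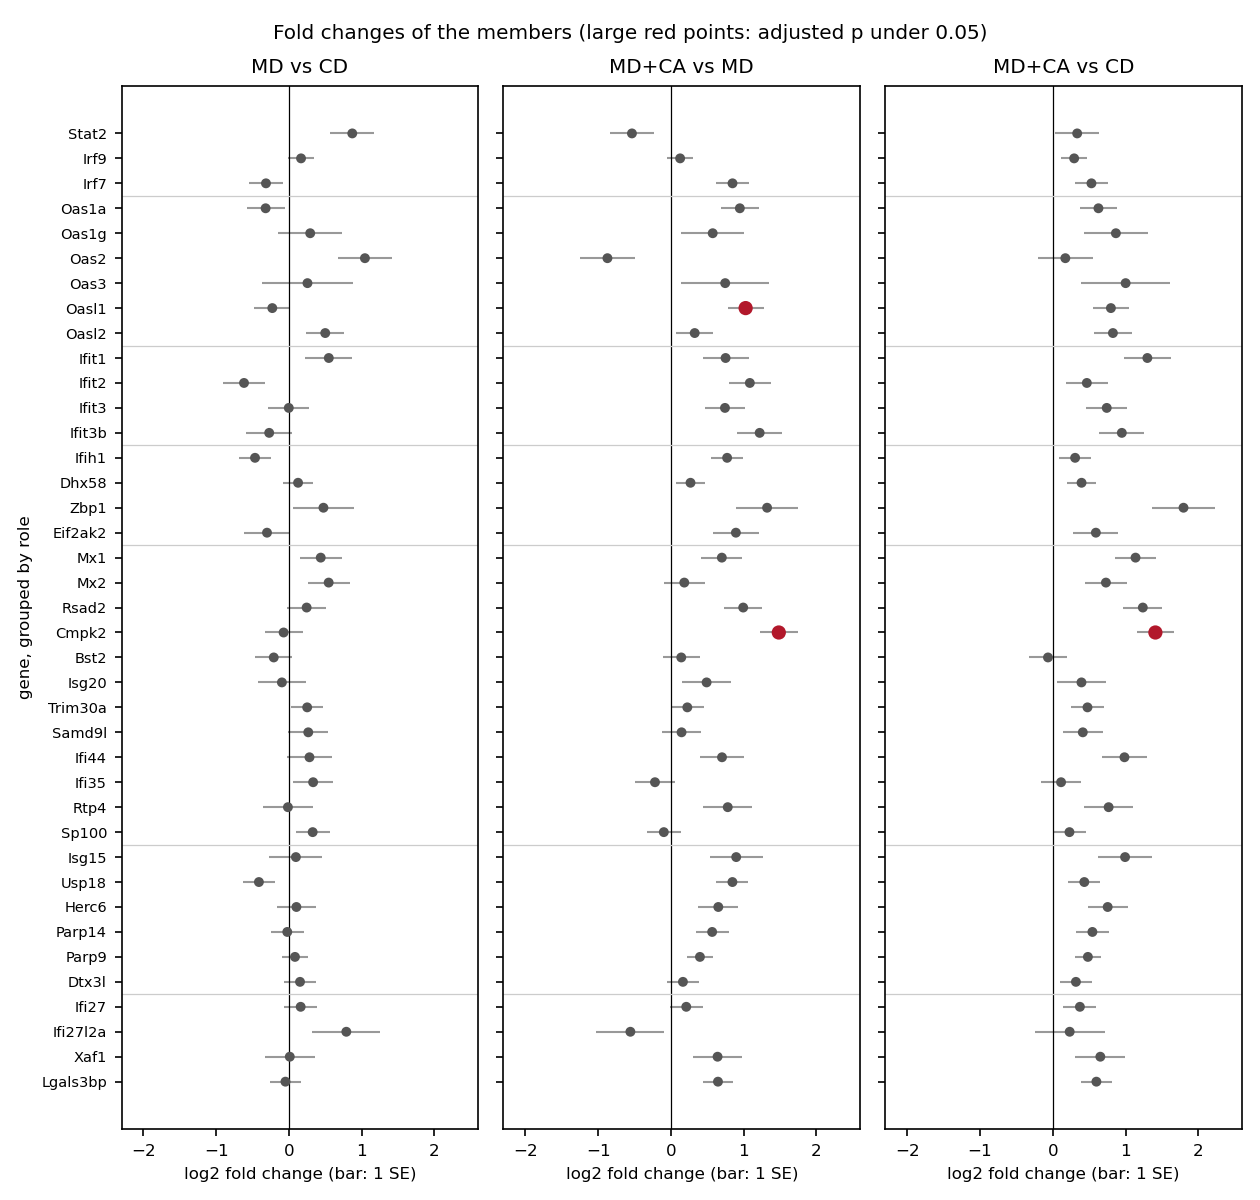
Log2 fold change of each member (points, bars 1 SE) in the 3 comparisons; large red points have an edgeR adjusted p under 0.05. Red points are Cmpk2 and Oasl1 in MD+CA vs MD and Cmpk2 in MD+CA vs CD, and most points of the last 2 panels lie right of 0.

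Between the MASH diet with vehicle and the control diet (MD vs CD) no member passed. By edgeR's quasi-likelihood test with Benjamini-Hochberg adjustment 0.044% of all genes were called higher and 0.044% lower, so few genes passed with edgeR. DESeq2 and limma voom also called 0 of the 39, where they called 1.07% of 27133 and 1.38% of 13631 genes higher. Without the adjustment Stat2 and Oas2 were higher and Ifih1 lower, so that 5.13% of members were higher against 10.5% of all genes, and 1 member was lower against 9.4% of all genes. The median over members was 0.13 against 0.04 over all genes, and 24 of 39 were positive (61.5%, against 53.7% of all genes). Irf7, Ifih1 and Usp18 had all 4 MD libraries below all 4 CD libraries. That is 3 of 39, where 7.12% of all genes did the same, and so is near the background. In 0 members did all MD libraries lie above all CD libraries, against 5.99% of all genes.

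Between the treated MASH diet group and the control diet group (MD+CA vs CD) 1 member, Cmpk2, passed. With means of 3.44 ± 0.629 CPM in CD and 9.12 ± 2.22 CPM in MD+CA (SD, n = 4), Cmpk2 rose by 1.41 on the log2 scale (SE 0.26, edgeR adjusted p = 0.0307), where 0.22% of all genes were called higher and 0.308% lower. It missed without CD replicate 1, 2 or 4, or MD+CA replicate 1 or 2, with adjusted p of 0.0598 to 0.111 and log2 fold changes of 1.23 to 1.47. Of the 39, 38 were positive (97.4%, against 52.0% of all genes), with a median of 0.59 against 0.02. Without the adjustment 19 members were higher, 48.7% against 6.16% of all genes, and 0 lower, against 4.37%. In 8 members all MD+CA libraries lay above all CD libraries (20.5%, against 3.48% of all genes), namely Oasl2, Mx1, Rsad2, Cmpk2, Trim30a, Ifi44, Parp9 and Lgals3bp, and in 0 they all lay below, against 2.92%. Both contrasts of MD+CA use the same 4 libraries, so their counts are not independent.

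Leaving out MD+CA replicate 2 lowered the size of these differences and kept the sign of the median. Without it the median over members in MD+CA vs MD was 0.44, the members with an unadjusted p under 0.05 were 11 in place of 22, and Cmpk2 was the 1 member called. Over all genes of that fit 18.2% had an unadjusted p under 0.05 and 0.418% were called higher, against 23.2% and 1.06% with all libraries. Leaving out both libraries numbered 2 (MD and MD+CA) gave a median of 0.56, with 35 of 39 members positive and 14 with an unadjusted p under 0.05, and edgeR then called 0. All genes of that fit were positive in 51.1%, had an unadjusted p under 0.05 in 14.8% and were called higher in 0.153%.

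Other genes of the pathway, from lists chosen with earlier results known, show where the members sit. Of 12 interferon ligand genes 10 had 0 reads in every library, Ifnb1 among them. The most reads of any ligand were 6, for Ifng in MD+CA replicate 2, and 3 reads correspond to 0.203 to 0.38 CPM. Ifnar1, a chain of the receptor, held 18.2 to 25.7 CPM in MD and 16.5 to 22.6 CPM in MD+CA (log2 fold change -0.16, SE 0.20, edgeR adjusted p = 0.654). Irf1, a factor induced chiefly by interferon gamma, was at 30.1 to 41.5 and 29.7 to 46.7 CPM (0.00, SE 0.20, adjusted p = 0.995).

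Interferon-induced genes outside the members had 3 of 41 tested genes higher in MD+CA vs MD. They were Ifi30, a lysosomal thiol reductase (0.86, SE 0.20, edgeR adjusted p = 0.0344), Epsti1 (1.47, SE 0.30, adjusted p = 0.0228) and Phf11b (2.05, SE 0.49, adjusted p = 0.0409). Without MD+CA replicate 2 none of the 3 passed (0.83, 1.17 and 1.51, adjusted p = 0.0855, 0.0687 and 0.137). In that fit 11 of 42 tested genes of the list were higher at an unadjusted p under 0.05. Of all genes in that fit 18.2% had an unadjusted p under 0.05, in either direction. The interferon-induced GTPases, which interferon gamma induces strongly and which attack the vacuoles of intracellular microbes, had 7 of 16 higher. They were Gbp5, Gbp6, Irgm1, Irgm2, Tgtp1, Ifi47 and Gvin1, with a median of 1.39 over the list. Tgtp1 held 3.53 to 6.52 CPM in MD and 14.8, 331, 26.6 and 22.4 CPM in MD+CA (4.51, SE 0.91, adjusted p = 0.0205). Without MD+CA replicate 2 Tgtp1 was at 2.29 (edgeR adjusted p = 0.0329), Tgtp1 and Gvin1 were the 2 GTPases called, and the median over the list was 0.74. Without both libraries numbered 2 Gvin1 was the 1 called. The summed GTPase level was 4574 CPM in MD+CA replicate 2, 1024 to 1101 CPM in the rest of MD+CA and 671 to 966 CPM in MD. Over all pathway lists with the members left out, 11 of 92 tested genes were higher and 0 lower with edgeR, and 38 were higher and 1 lower at an unadjusted p under 0.05. Of all genes, edgeR called 1.06% higher and 1.64% lower, and 11.6% were higher and 11.6% lower at an unadjusted p under 0.05. Without MD+CA replicate 2 edgeR called 2 of 93 tested genes higher, and without both libraries numbered 2 it called 1 of 92. All genes called higher in those fits were 0.418% and 0.153%.

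**Figure D4:**
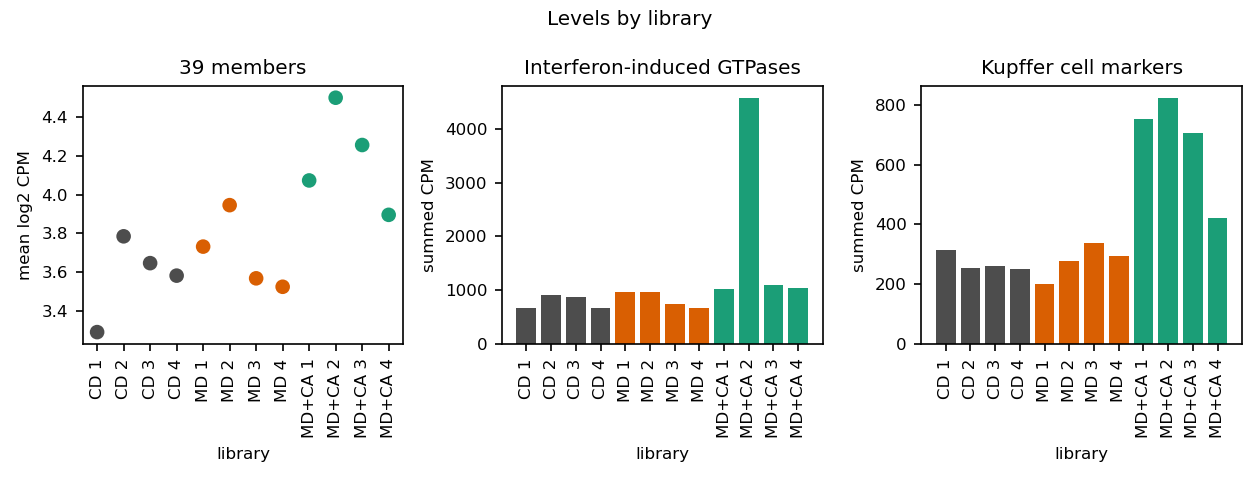
Mean log2 CPM of the 39 members (left), summed CPM of the interferon-induced GTPases (middle) and summed CPM of Kupffer cell markers (right) in each library; the left axis does not start at 0. GTPases reach 4574 CPM in MD+CA replicate 2, and Kupffer markers are at 423 to 822 CPM in MD+CA against 199 to 337 CPM in MD.

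Markers of other cell types went different ways in MD+CA vs MD, and those of Kupffer cells were higher as the members were. All 12 Kupffer cell markers had positive log2 fold changes in MD+CA vs MD, 5 of the 12 were called higher by edgeR (Vsig4, Marco, Cd5l, C1qa and Csf1r), and the median was 1.03. Without MD+CA replicate 2 the 12 were all positive with a median of 0.99, and 2 were called. They summed to 252 to 314 CPM in CD, 199 to 337 in MD and 423 to 822 in MD+CA, and none was at 0 in a group. T and NK cell markers summed to 4.20 to 5.70, 2.39 to 5.54 and 6.20 to 16.9 CPM, with 2 of 10 tested. Markers of plasmacytoid dendritic cells, known for making type I interferon, summed to 37.7 to 43.8, 47.9 to 88.8 and 33.7 to 53.0 CPM, with Klk1, Cox6a2 and Cd300c at 0 in CD. Neutrophil markers summed to 1.62 to 3.85, 2.79 to 6.31 and 1.90 to 18.5 CPM, with Ly6g at 0 in all 12 libraries. Sinusoidal endothelial markers were all 8 below 0, with a median of -0.49 and 4 of them lower at an unadjusted p under 0.05, and summed to 140 to 212 CPM in MD and 71.1 to 148 in MD+CA. Medians were -0.46 for the 3 tested plasmacytoid dendritic cell markers, -0.30 for stellate cells and -0.32 for bile duct cells. They were 0.24 for recruited monocytes and macrophages, 0.15 for B and plasma cells, 0.81 for the 2 tested T and NK cell markers and 0.32 for hepatocytes. The 2 tested neutrophil markers, at -0.17 and 2.46, had a median of 1.15, above that of the Kupffer cell markers. Kupffer cells were the 1 cell type with a marker called by edgeR. In a bulk sample more cells of a type and more RNA per cell cannot be told apart. The part of these cells in the levels of the members was not tested.

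The transcripts behind the member genes also varied. The leading transcript was annotated as protein coding for 34 of the 39 members. Those that led otherwise were Mx1 and Mx2, with transcripts of a loss-of-function class, Oas1g and Oasl2, with transcripts marked for nonsense-mediated decay, and Ifi27, with a retained intron. Mx2-201 took 82.0% of Mx2 reads on average, Oas1g-203 took 80.9% of Oas1g reads and Oasl2-205 took 70.8% of Oasl2 reads. Laboratory strains are known to carry defective Mx1 and Mx2 alleles.

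Ifi27 reads on retained-intron transcripts made up 58.3, 46.2, 31 and 46.8% in CD, 69.6, 80.7, 35.6 and 48.0% in MD and 67.8, 35.6, 44.6 and 30.3% in MD+CA. Libraries with short fragment length allowances had the higher shares in all 3 groups. The 4 libraries with an allowance of 221 to 246 bases had 58.3 to 80.7%, and the other 8, at 253 to 280 bases, had 30.3 to 48.0%. The part of fragment length in the Ifi27 level was not tested, and with fragment length as a covariate the log2 fold change of Ifi27 in MD vs CD turned from 0.16 to -0.16.

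**Figure D5:**
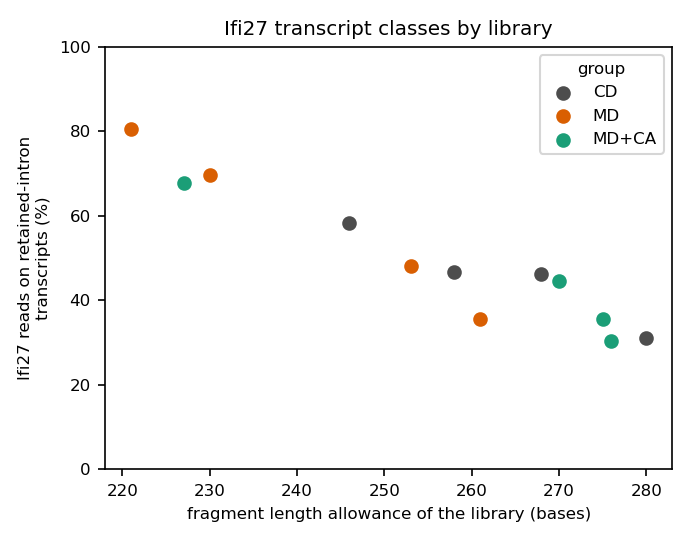
Percent of Ifi27 reads on retained-intron transcripts against the fragment length allowance (bases) of each of the 12 libraries, coloured by group. The 4 libraries at 221 to 246 bases lie at 58.3 to 80.7%, the other 8 at 30.3 to 48.0%, in all 3 groups.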

How the data were processed

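Liver RNA of 12 libraries was sequenced after poly(A) selection. Per the submitters' processing notes, DESeq2, Salmon 1.10.3 and fastp were used with the build GRCm39. Annotation release, strand setting and options: not given in the sources used here. Each table lists 147556 transcripts. Its estimated counts were made by the authors' quantification as reads per transcript, with no normalization, per the file headers. Its deposited TPM values correct for length and depth within a library, per the file headers. Its deposited effective length is the transcript length shortened by a fragment length allowance.

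Estimated counts were summed per gene and rounded. Genes were filtered with filterByExpr of edgeR 4.0.16 (minimum count 10), libraries were scaled with TMM, and CPM values are TMM-scaled. One quasi-likelihood model with a mean per group was fitted to the 12 libraries (9 residual degrees of freedom; common BCV, the biological coefficient of variation, 0.308), with Benjamini-Hochberg adjustment over 13631 genes and a threshold of 0.05. The standard error (SE) was taken as the size of the log2 fold change over the square root of its F. Mean log2 CPM used a prior count of 2. The deposited TPM served to compare levels between genes, and the deposited effective length served for an offset in 1 alternative. The steps were tested on simulated data. No 2 libraries of a group agreed within counting noise, so none is a mere repeat of another, and each was taken as 1 sample. That cannot show that they came from separate mice. The CPM given for 3 reads covers counting error only, while SD and SE also take in the spread between libraries.

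Members and lists were chosen with earlier results of these data known. Named with full values were members past the threshold, Isg15, Ifit1, Ifit3, Irf7, Irf9, Stat2, Usp18, Oas1a, Mx1, Rsad2, Bst2 and Ifi27, and the members with the highest and lowest fold change of each comparison. The rule for printed promoters took Isg15, since neither called member holds the response element core. The other promoters, and Ifit2, Ifit3b, Ifih1, Eif2ak2 and Lgals3bp in full, were chosen after their values were seen. Promoters and gene order are RefSeq's, on GRCm38.p6. Transcripts compared for likeness are GENCODE's, the longest protein-coding one of each gene. Proteins were not compared. Alternatives used RLE scaling, DESeq2 1.42.0, limma 3.58.1 (voom with sample weights), no filter, the length offset, summed copies, a model of the 2 compared groups alone, a block for the replicate number and leaving out each library. Leaving out both libraries numbered 2 and a fragment length covariate were added after the data were seen. R 4.3.3, Python 3.11.15, pandas 2.3.3, numpy 2.4.6, matplotlib 3.10.9 and Biopython 1.88 were used. Some results of the pathway lists are not reported here.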

Additional observations from a re-analysis of the deposited data

Results flagged for a closer look

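Oas2 in CD had 1 library apart from the other 3: replicate 4 was at 6.54 CPM, against 3.38 to 3.65 CPM in replicates 1 to 3. The gap to its nearest neighbour took more of the group's range than Dixon's 95% critical value allows for 4 libraries. Of 54 groups of 4 libraries examined this was the 1 that passed, and chance alone would pass about 1 in 20.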

How the results depend on the processing

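The number of members called in MD+CA vs MD (2) was 2 with RLE scaling and with near-identical copies summed. It was 11 with DESeq2, 7 with limma voom, 10 without the low-count filter, 1 with the length offset, 1 with only the compared groups, 0 without both libraries numbered 2 and 1 with the fragment length covariate. Leaving out 1 library gave 1 to 6, with 0.274% to 3.24% of all genes called higher. The 5 without MD replicate 3 came with 3.24%. The 6 without MD+CA replicate 1 came with 2.59%, and the 6 without MD+CA replicate 4 with 0.861%. The share of all genes called higher moved too, from 1.06% to 2.25% of 27133 genes with DESeq2, 1.86% of 27133 without the filter, 1.37% with limma voom, 0.609% with the length offset, 0.256% with the compared groups alone and 0.455% with the covariate. In MD+CA vs CD (1) it was 5 with DESeq2, 5 with limma voom, 4 without the filter, 0 with the length offset, 0 without both libraries numbered 2 and 3 with the fragment length covariate, and 0 to 4 when 1 library was left out. All genes called higher there were 0.22%, and 0.649, 0.8, 0.885, 0.0807, 0.0874 and 0.58% with DESeq2, limma voom, no filter, the offset, both libraries out and the covariate. With 1 library left out they were 0.0431% to 0.639%. In MD vs CD it was 0 under all 22 alternatives, where 0% to 1.38% of all genes were called higher. The replicate block called 7 in MD+CA vs MD, 3 in MD+CA vs CD and 0 in MD vs CD, with 2.05% and 0.536% of all genes called higher in the first 2. Deviations of same-numbered libraries correlated by 0.178 on average (-0.08 to 0.35, 11 of 12 positive, 8 of 12 over 0.1) and those of other pairs by -0.059 (-0.40 to 0.31). Deviations were taken from each gene's group mean. That nearly fixes the mean of other pairs once the mean of same-numbered pairs is given, so it is no separate contrast. In 16 of 24 cases a library correlated best with its own number, a hint from the data and not from the design. The labels do not say that the numbers mark anything shared and not every pair was over 0.1, so the block is an alternative only. The medians over members kept their sign under all 22 alternatives.

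Uncalled values near 0 changed sign. Cmpk2 in MD vs CD (-0.07) was 0.071 with limma voom, 0.075 without both libraries numbered 2 and 0.10 with the covariate, and -0.20 to 0.074 with 1 library left out. Ifit3, MD vs CD, was 0.13 with limma voom, 0.000859 with only the compared groups, 0.074 with the replicate block, 0.048 without both libraries and 0.17 with the covariate, and -0.17 to 0.21 with 1 library left out. With 1 library left out, Isg15 in MD vs CD ran from -0.13 to 0.35, Bst2 in MD+CA vs MD from -0.010 to 0.35 and Bst2 in MD+CA vs CD from -0.22 to 0.13. Ifi27 in MD vs CD was -0.16 with the covariate, and Oas2 in MD+CA vs CD -0.062 with the length offset. The cause of these changes was not tested. Reads limit Oas3 and Ifi27l2a most.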
